A study of Rattus norvegicus with 60 samples.

Results

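The effect of methylprednisolone (MP) on injured spinal cord was examined 8 and 12 h after medication, by setting injured rats that received MP (SCI-MP) against injured rats that received the vehicle alone (SCI-EtOH). The 8 arrays were chosen by the group and time in their sample titles, with 2 rats per group at each time and 1 array per rat, out of 60 arrays in the whole series. The SCI-MP rats received MP intravenously at 30 mg/kg in 70% ethanol shortly after a contusion of the thoracic cord, and the SCI-EtOH rats had the same contusion and the same volume of 70% ethanol without MP. All rats were female Long Evans animals of 8 to 9 weeks, with no genetic modification, anesthetized with Zoletil and Rompun, so that injury, ethanol and anesthesia were shared by both groups. The series also holds sham rats given MP (S-MP) or ethanol (S-EtOH), and times between 0 and 48 h. RNA came from the 5 mm lesioned segment as a whole, in which neurons, glia, vessels, blood and invading leukocytes are mixed, so that fewer cells of a type and less RNA per cell cannot be told apart. Each gene was measured by Affymetrix whole-transcript rat arrays as a log2 value around a centre of its own, which gives differences between rats but no level of a gene against another gene, and a check that the defining markers of spinal cord are present is therefore not possible from level alone. Arrays give no read depth, and the precision was set by the number of arrays.

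MP is a synthetic glucocorticoid. It binds the glucocorticoid receptor, a nuclear receptor that then moves into the nucleus, raises the transcription of genes with glucocorticoid response elements and lowers that of many genes driven by NF-kappaB and AP-1, among them cytokines, chemokines and inducible enzymes. After a contusion, resident glia and invading neutrophils and monocytes produce these mediators within hours, while neuronal transcripts decline in the lesion.

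The 8 arrays differed in how closely the rats of a group resembled each other. Over all 27342 probe sets, the 2 rats of a group correlated at 0.903 in SCI-MP at 12 h and at 0.714 in SCI-MP at 8 h, against 0.731 in SCI-EtOH at 12 h and 0.684 in SCI-EtOH at 8 h. The principal components were taken from the same probe sets. On the first principal component of the 60 arrays, the SCI-MP rats stood at 5.97 and 15.2 at 8 h, against 46.0 and 33.8 for the SCI-EtOH rats, and at 51.0 and 50.8 at 12 h, against 37.0 and 41.6 for the SCI-EtOH rats. The SCI-MP rats thus lay below both SCI-EtOH rats on this axis at 8 h and above both at 12 h. On the third component the 4 SCI-MP rats lay between -18.8 and -10.6 and the 4 SCI-EtOH rats between 13.1 and 22.0, and the groups did not overlap at either time. The 2 SCI-EtOH rats of 0 h stood at 27.3 and 29.7 on this component, against 0.140 and 0.676 for the S-EtOH rats of 0 h, so that the SCI-EtOH side was present at 0 h. No source used here gives a scan or hybridization batch.

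With time as a covariate, inflammatory mediators such as Il1b, Nos2 and Cxcl2 were lower in SCI-MP than in SCI-EtOH cord, and the protease inhibitors Serpina3n and Pi15 were higher. Of 14324 genes tested, 310 passed an adjusted p of 0.05 (limma, Benjamini-Hochberg over all genes), which is 2.16% of the genes. Among them 123 were higher in SCI-MP (0.859%) and 187 were lower (1.31%). The mean difference exceeded 1 on the log2 scale in 9 of the higher and 23 of the lower genes, whereas the median over all genes was -0.03. The 2 SCI-MP rats lay on the same side of both SCI-EtOH rats at both times in 2540 genes (17.7%), above them in 1017 (7.1%) and below them in 1523 (10.6%). The genes named by size were drawn from these, so their lack of overlap at each time follows from the choice. The count of 310 moved by over 1.5 times without any 1 of the 8 arrays. It was 0 without SCI-MP 8 h replicate 2 or SCI-MP 12 h replicate 2, 2 without SCI-MP 8 h replicate 1, 19 without SCI-MP 12 h replicate 1, 12 without SCI-EtOH 8 h replicate 2, 121 without SCI-EtOH 12 h replicate 2, 163 without SCI-EtOH 12 h replicate 1 and 996 without SCI-EtOH 8 h replicate 1.

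The largest fall was in Il1b, which encodes the proinflammatory cytokine interleukin-1 beta. Its log2 value was 0.27 and -0.07 in the SCI-MP rats at 8 h, against 3.38 and 3.20 in the SCI-EtOH rats, and 1.23 and 1.15 in the SCI-MP rats at 12 h, against 2.53 and 2.26 in the SCI-EtOH rats. All 4 SCI-MP rats lay below all 4 SCI-EtOH rats. The difference was -2.20 (95% interval -3.01 to -1.38, adjusted p = 0.0314 in limma), or 0.218 of the SCI-EtOH level, and it was deeper at 8 h (-3.19) than at 12 h (-1.20), with an adjusted p of 0.0169 for the change between the times. Nos2, the inducible nitric oxide synthase, stood at 0.74 in each SCI-MP rat at 8 h, against 3.75 and 3.60 in the SCI-EtOH rats. At 12 h it stood at 2.19 and 2.14 in the SCI-MP rats, against 4.00 and 3.15 in the SCI-EtOH rats. Its groups did not overlap, and its mean difference was -2.17 (95% interval -2.88 to -1.47, adjusted p = 0.0244 in limma).

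Of 24 chemokines measured, 2 fell and 1 rose over both times, beside 1.31% and 0.859% of all genes, with a list median of -0.22. Cxcl2, a chemokine that attracts neutrophils, was at 3.04 and 2.69 in the SCI-MP rats at 8 h, against 4.53 and 4.60 in the SCI-EtOH rats. At 12 h it was at 3.55 and 3.05 in the SCI-MP rats, against 4.53 and 4.26 in the SCI-EtOH rats. The mean difference was -1.40 (95% interval -1.78 to -1.01, adjusted p = 0.0191 in limma), and every SCI-MP rat lay below every SCI-EtOH rat. Ccl4, a chemokine for monocytes and T cells, differed by -1.59 over both times (adjusted p = 0.0322 in limma), with 1.28 and 0.66 in the SCI-MP rats against 2.98 and 2.11 in the SCI-EtOH rats at 8 h, and 1.44 and 0.40 against 2.48 and 2.58 at 12 h. Cxcl11, an interferon-induced ligand of Cxcr3, was higher by 0.91 (adjusted p = 0.0372 in limma). None of the 3 calls held without SCI-MP 8 h replicate 1 or 2, SCI-MP 12 h replicate 2 or SCI-EtOH 8 h replicate 2, and the list had 1 fall and no rise without SCI-MP 12 h replicate 1 or SCI-EtOH 12 h replicate 2, and 2 falls and no rise without SCI-EtOH 12 h replicate 1.

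The promoters of 31 of the named genes were searched for, and 22 had an entry in the promoter table of RefSeq. Cxcl2 was the only 1 of these 22 with a match to the NF-kappaB motif, GGG followed by any 2 bases and TTTCC (either strand) between 250 bases before and 50 bases after its start. In the same region, Cdc37l1 was the only 1 with TGTTCT (either strand), which is only a part of a glucocorticoid response element. The promoters of Cxcl2, which fell, and Cdc37l1, which rose, thus hold the only matches to this motif and to TGTTCT among these 22 promoters. Their sequences upstream of the start are therefore shown 5′ to 3′ on the gene's strand, and the capitals mark these matches.
Cxcl2, GRCr8 chr14:17467256-17467505, minus strand: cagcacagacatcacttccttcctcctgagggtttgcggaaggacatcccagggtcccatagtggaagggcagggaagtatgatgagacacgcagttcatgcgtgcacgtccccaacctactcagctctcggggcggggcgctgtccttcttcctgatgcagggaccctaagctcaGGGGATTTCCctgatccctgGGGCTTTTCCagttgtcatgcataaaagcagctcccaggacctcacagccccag
Cdc37l1, GRCr8 chr1:236118380-236118629, plus strand: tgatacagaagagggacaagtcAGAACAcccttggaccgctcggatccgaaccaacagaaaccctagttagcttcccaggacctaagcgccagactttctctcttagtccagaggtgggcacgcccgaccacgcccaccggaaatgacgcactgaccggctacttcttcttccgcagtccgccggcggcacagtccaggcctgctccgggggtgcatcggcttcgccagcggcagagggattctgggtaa
The Cxcl2 matches begin at positions -74 and -54 from the start, and the Cdc37l1 match begins at -228 on the opposite strand. The NF-kappaB motif was present in 2.58% of the promoters of genes that fell and in 2.04% of those that rose, beside 1.71% for the genes tested and 1.51% of 27457 promoters. The wider NF-kappaB motif, GGG followed by any 5 bases and CC, was present in 15 of the 22 promoters, in 72.3% of those of genes that fell and in 61.2% of those that rose, beside 57.7% for the genes tested and 48.5% of all promoters. TGTTCT was present in 16.1% of those that fell and in 19.4% of those that rose, beside 15.5% for the genes tested and 20.1% of all promoters. These are matches of letters only.

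Slc16a3, the lactate exporter MCT4, was at 0.35 and 0.04 in the SCI-MP rats at 8 h, against 3.52 and 2.52 in the SCI-EtOH rats, and at 1.57 and 1.50 in the SCI-MP rats at 12 h, against 3.23 and 2.37 in the SCI-EtOH rats. It fell by 2.05 on the log2 scale over both times (adjusted p = 0.0346 in limma). G0s2, an inhibitor of triglyceride lipolysis, was at 0.04 and 0.47 in the SCI-MP rats at 8 h, against 2.68 and 2.43 in the SCI-EtOH rats, and at 0.81 and 0.62 in the SCI-MP rats at 12 h, against 2.42 and 1.58 in the SCI-EtOH rats. It fell by 1.79 (adjusted p = 0.0244 in limma), and in both genes the groups were apart at each time.

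Plaur, the receptor for the plasminogen activator urokinase, had 1 of the smallest adjusted p-values of the named genes. It was at 0.55 and 0.96 in the SCI-MP rats at 8 h, against 2.36 and 2.21 in the SCI-EtOH rats, and at 1.24 and 1.39 in the SCI-MP rats at 12 h, against 2.50 and 2.60 in the SCI-EtOH rats. The fall of 1.38 (adjusted p = 0.0104 in limma) was similar in size at 8 h (-1.53) and at 12 h (-1.24). Tyrobp, the adaptor of activating receptors on microglia and other myeloid cells, fell by 1.34 over both times. The remaining falls named by size were Gna15, a G protein subunit of blood cells (-1.19), Pim1, a kinase induced by cytokines (-1.18), Igfbp5, a binding protein of insulin-like growth factors (-1.14), and Pbld1 (-1.51), with adjusted p between 0.0104 and 0.0453 in limma. Of 27 cytokine and chemokine receptors, 3 fell and none rose over both times (list median -0.25), namely Il10ra of interleukin-10 (-0.90), Tnfrsf1b of tumour necrosis factor (-0.78) and the fractalkine receptor Cx3cr1 (-0.75), beside 1.31% of all genes that fell. The 3 were 0 without SCI-MP 8 h replicate 1 or 2, SCI-MP 12 h replicate 2 or SCI-EtOH 8 h replicate 2, and 1 without SCI-MP 12 h replicate 1 or SCI-EtOH 12 h replicate 2.

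Immediate early factors were lower in part. Of 20 genes of the AP-1, EGR and related list, 4 fell and none rose over both times, with a list median of -0.36 beside -0.03 for all genes, of which 1.31% fell. They were Ier2 (-1.06), Atf3 (-0.87), Nr4a1 (-0.85) and Egr1 (-0.73), whereas Fos and Jun did not pass. Of these, Ier2 and Egr1 also exceeded the S-EtOH values in SCI-EtOH rats at 0 h, by 0.80 and 0.81, in rats that received no MP, and with that difference added Egr1 turned to 0.083. The count of 4 was 0 without SCI-MP 8 h replicate 2 or SCI-MP 12 h replicate 2, 1 without SCI-MP 8 h replicate 1, SCI-EtOH 8 h replicate 2 or SCI-EtOH 12 h replicate 1, and 2 without SCI-MP 12 h replicate 1 or SCI-EtOH 12 h replicate 2. Of 15 genes in the list of NF-kappaB subunits and regulators, 2 fell and none rose, namely Nfkbie (-0.78) and Nfkbiz (-0.51), with a list median of -0.26. These 2 were 0 without any 1 of the SCI-MP arrays, SCI-EtOH 8 h replicate 2 or SCI-EtOH 12 h replicate 2, and 1 without SCI-EtOH 12 h replicate 1.

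**Figure D1:**
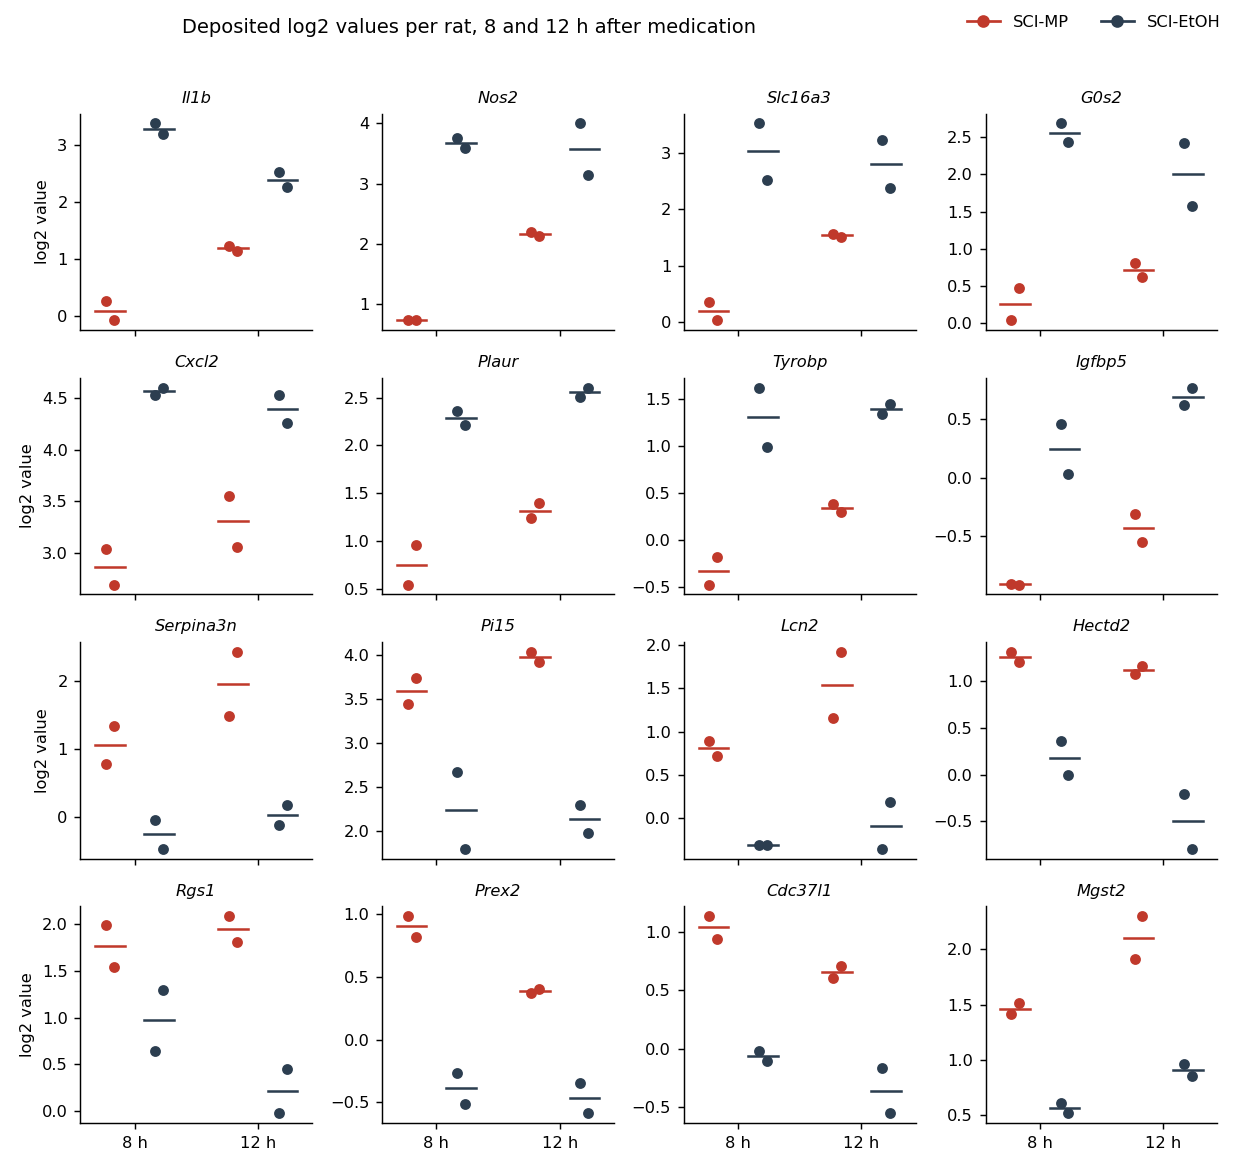
Deposited log2 values of 16 genes in each rat at 8 and 12 h (y axis, log2 around the centre of the gene), with SCI-MP in red left of SCI-EtOH in dark blue and bars at the mean of the 2 rats. Il1b, Nos2 and the other genes of the upper 2 rows were lower in every SCI-MP rat than in either SCI-EtOH rat of the same time, and Serpina3n, Pi15 and the other genes of the lower 2 rows were higher. The 16 genes were chosen among those without overlap at either time, so this separation follows from the choice.

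The largest rise was in Serpina3n, a secreted serine protease inhibitor of reactive astrocytes and of the acute phase. Its log2 value was 0.78 and 1.33 in the SCI-MP rats at 8 h, against -0.05 and -0.47 in the SCI-EtOH rats, and 1.48 and 2.43 in the SCI-MP rats at 12 h, against -0.12 and 0.18 in the SCI-EtOH rats. The groups were apart, and the mean difference was 1.62 (95% interval 1.07 to 2.17, adjusted p = 0.0257 in limma), or 3.07 times the SCI-EtOH level. Pi15, a secreted peptidase inhibitor, was at 3.45 and 3.74 in the SCI-MP rats at 8 h, against 2.67 and 1.79 in the SCI-EtOH rats, and at 4.04 and 3.93 in the SCI-MP rats at 12 h, against 2.29 and 1.97 in the SCI-EtOH rats. It rose by 1.61 (95% interval 1.15 to 2.07, adjusted p = 0.0191 in limma). In contrast to Serpina3n, the value of Pi15 in SCI-EtOH rats exceeded that of S-EtOH rats by 2.27, and these comparisons share the SCI-EtOH arrays.

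Lcn2, the iron-siderophore binding protein lipocalin-2, was at 0.89 and 0.72 in the SCI-MP rats at 8 h, against -0.31 and -0.32 in the SCI-EtOH rats, and at 1.15 and 1.92 in the SCI-MP rats at 12 h, against -0.36 and 0.18 in the SCI-EtOH rats. It rose by 1.37 (adjusted p = 0.0244 in limma). Other rises over both times were Hectd2, a ubiquitin ligase (1.35), Rgs1, a brake on chemokine receptor signalling in leukocytes (1.27), Prex2, an exchange factor for Rac (1.07), Cdc37l1, a partner of the Hsp90 chaperone (1.06), and Mgst2, a microsomal glutathione transferase (1.05). For Rgs1 at 8 h the SCI-MP rats at 2.00 and 1.54 stood close above the SCI-EtOH rat at 1.30. Zfp189, a zinc finger factor, rose by 1.38, with 1.78 and 1.62 in the SCI-MP rats at 8 h against -0.21 and -0.14 in the SCI-EtOH rats, and 0.58 and 0.43 in the SCI-MP rats at 12 h against -0.01 and -0.74 in the SCI-EtOH rats. Zmat2 (0.96), Cab39 (0.96) and Gpatch4 (0.95) completed the 12 largest rises, and with the 0 h difference between SCI-EtOH and S-EtOH rats added Zmat2 turned to -0.024.

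Transcripts known to be induced by glucocorticoids rose only in part. Of 29 such genes 4 were higher and 1 was lower over both times, beside 0.859% and 1.31% of all genes, and the list median was 0.12. The 4 were Lcn2, Zbtb16 (0.65, a zinc finger repressor), Gpd1 (0.61, glycerol-3-phosphate dehydrogenase) and Errfi1 (0.59, an inhibitor of the EGF receptor). This count of 4 was 0 without any 1 of the 4 SCI-MP arrays or without SCI-EtOH 8 h replicate 2, 2 without SCI-EtOH 12 h replicate 2 and 6 without SCI-EtOH 8 h replicate 1. In sham cord over both times, 2 of the 29 genes were higher and 3 lower in S-MP than in S-EtOH, with a list median of 0.004. Among all 14324 genes, 416 were higher and 174 lower in sham cord. Lcn2, which is also among the neutrophil and reactive astrocyte markers, differed in the opposite direction in sham cord. Fkbp5, the receptor's cochaperone, was at 1.21 and 1.25 in the SCI-MP rats at 8 h, against 0.76 and -0.29 in the SCI-EtOH rats, and at 1.25 and 1.41 in the SCI-MP rats at 12 h, against 0.65 and 0.32 in the SCI-EtOH rats. Every SCI-MP rat lay above every SCI-EtOH rat, yet the difference of 0.92 did not pass (adjusted p = 0.0592 in limma), nor did that of the kinase Sgk1 (0.65, adjusted p = 0.064). Tsc22d3, which encodes the leucine zipper protein GILZ, differed by 0.09 (95% interval -0.12 to 0.30), the phosphatase Dusp1 by -0.26 and the receptor Nr3c1 by -0.02, none past the threshold. The clock gene Per1 fell by 0.58 (adjusted p = 0.0491 in limma), with 0.24 and 0.10 in the SCI-MP rats at 8 h against 0.65 and 0.39 in the SCI-EtOH rats, and 0.13 and -0.01 in the SCI-MP rats at 12 h against 0.86 and 0.89 in the SCI-EtOH rats.

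Each time was then tested alone, in a fit with a mean for each group and time. The 4 groups share a spread in this fit. Leaving out an array of 8 h or 12 h therefore leaves the effects at the other time unchanged. Counts at that other time then move through the shared spread only. At 8 h 424 genes passed (2.96%), 121 higher (0.845%) and 303 lower (2.12%), and at 12 h 549 passed (3.83%), 254 higher (1.77%) and 295 lower (2.06%). After quantile normalization 16 genes passed at 12 h, 10 higher and 6 lower. The plain analysis of the methods, which first selects genes that differ among the 4 groups of a time with sham rats included, gave another balance, with 355 genes at 8 h, 219 higher and 136 lower, and 959 at 12 h, 308 higher and 651 lower. A gene was taken as moved at both times where it passed at 8 h and at 12 h in the same direction, and as moved at 1 time only where it passed there, had an unadjusted p of 0.05 or more at the other time, and had an adjusted p under 0.05 for the difference between the times. By these rules 40 genes (0.279%) moved at both times, 13 higher and 27 lower, 21 (0.147%) moved at 8 h only and 4 (0.0279%) at 12 h only. A further 17 genes passed at both times in opposite directions. The other 346 genes called at 8 h and 488 called at 12 h could be placed in none of these classes.

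The 27 genes lower at both times held Il1b, Nos2, G0s2, Cxcl2, Tyrobp, Plaur, Pim1, Igfbp5, Ier2, Il10ra and the phosphatase Dusp2 (-1.07 at 8 h and -0.73 at 12 h). Also lower were Zc3h12a, an RNase that degrades cytokine transcripts (-1.22 and -0.98), Acod1, the itaconate-producing enzyme of activated macrophages (-0.91 and -0.93), Inpp5d, the myeloid phosphatase SHIP1 (-1.25 and -0.81), and Irf8, a factor of the myeloid lineage (-0.71 and -0.54). Zc3h12a was at 0.41 and 0.56 in the SCI-MP rats at 8 h, against 1.85 and 1.56 in the SCI-EtOH rats, and at 0.68 and 0.50 in the SCI-MP rats at 12 h, against 1.62 and 1.53 in the SCI-EtOH rats. The 13 genes higher at both times held Pi15, Hectd2, Prex2, Cdc37l1, Gpatch4 and Mgst2, together with the replication origin subunit Orc4 (0.92 at each time), the splicing protein Pnn (0.80 and 0.84), the hypoxia factor Hif3a (0.66 and 0.67) and Uqcrb of respiratory complex III (0.66 and 0.70). Of 43 respiratory chain and ATP synthase genes, 2 rose and none fell in the fit over both times, beside 0.859% and 1.31% of all genes. The median of that list was -0.13. Zc3h12a, Acod1, Inpp5d, Orc4, Pnn and Hif3a were picked as examples after their values were seen.

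**Figure D2:**
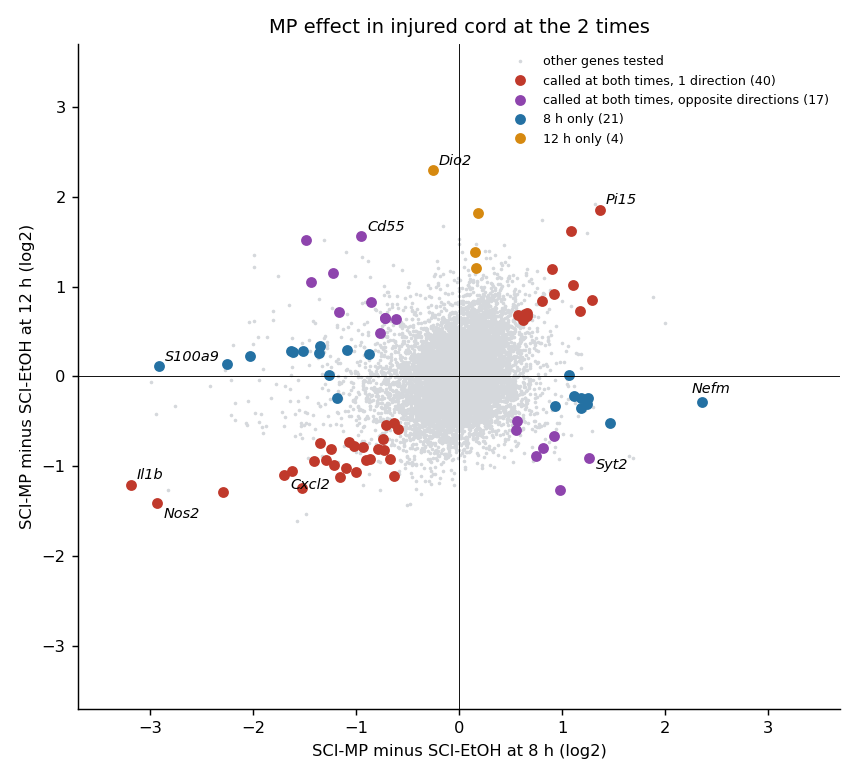
Difference SCI-MP minus SCI-EtOH at 12 h (y axis, log2) against that at 8 h (x axis, log2) for 14324 genes, each a point, with the 4 classes in color. The 40 genes called at both times in the same direction lie in the lower left and upper right, the 21 genes of 8 h near the horizontal axis, the 4 genes of 12 h near the vertical axis and the 17 of opposite direction in the other corners.

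The largest effect at 8 h only was in S100a9, a calprotectin subunit abundant in neutrophils. It was at 0.70 and 0.67 in the SCI-MP rats at 8 h, against 3.53 and 3.67 in the SCI-EtOH rats, and at 2.82 and 2.90 in the SCI-MP rats at 12 h, against 2.95 and 2.54 in the SCI-EtOH rats. The SCI-MP rats were far below the SCI-EtOH rats at 8 h and among them at 12 h. The difference was -2.92 at 8 h (adjusted p = 0.000225 in limma) and 0.11 at 12 h, and the change between the times had an adjusted p of 0.00546. Cxcl6, a neutrophil chemokine, differed by -2.26 at 8 h and 0.14 at 12 h, C3h15orf48 by -2.03 and 0.22, and Lif, a cytokine of the interleukin-6 family, by -1.64 and 0.29. The other falls of 8 h only were Xdh, Has1, Srgn, Samsn1, Plscr1, Cyth4, Gda and Ceacam4, between -1.62 and -0.88 at 8 h.

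Neutrophil markers were lower as a list at 8 h. Of 14 measured, 7 fell and none rose at 8 h, with a list median of -1.50 beside -0.01 for all genes, of which 2.12% fell, and at 12 h 2 rose, none fell and the median was 0.10. The 7 were S100a9, S100a8 (-1.99), the collagenase Mmp8 (-2.76), the receptor Trem1 (-2.42), the chemokine receptor Cxcr2 (-2.20), the G-CSF receptor Csf3r (-1.87) and Retnlg (-1.93). Cxcr2 was at 1.86 and 1.72 in the SCI-MP rats at 8 h, against 4.60 and 3.39 in the SCI-EtOH rats, and at 4.06 and 3.61 in the SCI-MP rats at 12 h, against 3.97 and 2.99 in the SCI-EtOH rats. Mpo, Elane, Camp and Ngp, granule proteins made before neutrophils leave the marrow, differed by -0.35 to 0.13 at 8 h, without passing. The mean of the list per rat was 0.37 and 0.46 in SCI-MP at 8 h, against 1.52 and 1.79 in SCI-EtOH, and 1.42 and 1.46 in SCI-MP at 12 h, against 1.12 and 1.39 in SCI-EtOH. In sham rats at these times it lay between -0.22 and -0.05 in S-MP and between 0.00 and 0.12 in S-EtOH. The 2 genes higher at 12 h were Lcn2 and the formyl peptide receptor Fpr1 (1.29). The count of 7 was 1 without SCI-MP 8 h replicate 1, 2 without SCI-MP 8 h replicate 2 and 4 without SCI-EtOH 8 h replicate 1.

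Receptors and enzymes of inflammation had more calls at 8 h than at 12 h. Over all genes 2.12% fell at 8 h, and 1.77% rose and 2.06% fell at 12 h. Of 27 cytokine and chemokine receptors, 11 fell and none rose at 8 h (median -0.64), while at 12 h 1 rose, 1 fell and the median was 0.08. Examples are Ccr1 (-2.22) and the interleukin-1 decoy receptor Il1r2 (-2.18). Of 23 enzymes of nitric oxide, prostanoid and oxidant production, 9 fell at 8 h (median -0.73) and 1, Nos2, fell at 12 h (median 0.03). They included arginase Arg1 (-2.05), the NADPH oxidase subunit Cybb (-1.72) and cyclooxygenase-2, Ptgs2 (-1.08). Ptgs2 was at 0.86 and 0.92 in the SCI-MP rats at 8 h, against 1.98 and 1.96 in the SCI-EtOH rats, and at 1.76 and 1.86 in the SCI-MP rats at 12 h, against 1.47 and 1.07 in the SCI-EtOH rats. Of 20 genes of coagulation, fibrinolysis and serine protease inhibition, 8 fell at 8 h, among them thrombomodulin, Thbd (-1.45), and tissue plasminogen activator, Plat (-0.84), with a median of -0.34, and at 12 h 2 rose, 1 fell and the median was 0.23. Leaving out SCI-MP 8 h replicate 1 brought the counts of 11, 9 and 8 to 0, 0 and 0, leaving out SCI-MP 8 h replicate 2 brought them to 0, 1 and 2, leaving out SCI-EtOH 8 h replicate 1 brought them to 5, 4 and 5, and leaving out either SCI-MP 12 h array brought them to 4, 6 and 5.

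Of 27 cytokines, 6 fell and none rose at 8 h, among them Il1b, Lif and oncostatin M, Osm (-1.88), whereas at 12 h 2 rose and 2 fell. Over all genes 2.12% fell at 8 h, and at 12 h 1.77% rose and 2.06% fell. The 2 cytokines that rose at 12 h were interleukin-6, Il6 (0.94), and Il33 (1.04), an alarmin of glia, and the falls were Il1b and Mif (-0.67). Il6 was at 2.998 and 2.83 in the SCI-MP rats at 8 h, against 3.41 and 3.80 in the SCI-EtOH rats, and at 3.64 and 3.54 in the SCI-MP rats at 12 h, against 2.91 and 2.39 in the SCI-EtOH rats. The 6 falls at 8 h were 1 without either SCI-MP 8 h array, 2 without SCI-EtOH 8 h replicate 1 and 4 without either SCI-MP 12 h array, and at 12 h none of the 4 calls held without any 1 of the SCI-MP arrays or without SCI-EtOH 12 h replicate 2, and the list had 1 rise and 1 fall without SCI-EtOH 12 h replicate 1. Macrophage and monocyte markers were lower in 3 of 11 at 8 h, including lysozyme, Lyz2 (-1.95), and higher in 2 of 11 at 12 h, the scavenger receptors Cd163 (1.10) and Mrc1 (0.81). Of 8 microglia markers, 2 were lower at 8 h, Cx3cr1 (-0.94) and Selplg (-0.99), and none passed at 12 h. The 3 macrophage and 2 microglia falls at 8 h were 0 and 0 without either SCI-MP 8 h array, 1 and 0 without either SCI-MP 12 h array, 1 and 1 without SCI-EtOH 8 h replicate 1, and 7 and 0 without SCI-EtOH 8 h replicate 2. The 2 macrophage rises at 12 h were 0 without any 1 of the SCI-MP arrays or of the SCI-EtOH 12 h arrays.

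The 9 rises at 8 h only included neuronal transcripts. Nefm, the medium neurofilament chain, was at -0.17 and -0.67 in the SCI-MP rats at 8 h, against -3.12 and -2.43 in the SCI-EtOH rats, and at -2.33 and -3.20 in the SCI-MP rats at 12 h, against -2.42 and -2.56 in the SCI-EtOH rats. The groups were apart at 8 h and overlapped at 12 h, with differences of 2.36 at 8 h (adjusted p = 0.0121 in limma) and -0.28 at 12 h and an adjusted p of 0.044 for the change between the times. Nefl, the light chain, differed by 1.46 at 8 h and -0.51 at 12 h, the RNA-binding protein Elavl2 by 1.25 and -0.24, and the growth factor Fgf9 by 1.24 and -0.31. Snap25, a synaptic fusion protein (1.06 at 8 h), Ina, a neuronal intermediate filament (0.93), the calcium-binding protein Pvalb, Epb41l3 and Hebp2 were the other rises of 8 h only.

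As lists, and beside 0.845% of all genes that rose at 8 h, 7 of 14 neuron markers rose at 8 h (median 0.80) and none passed at 12 h (median -0.31). Of 22 genes of synaptic vesicle release, 9 rose at 8 h (median 0.69). At 12 h none rose, 4 fell beside 2.06% of all genes, and the median was -0.35. Of 21 neuronal ion channels and transmitter receptors, 6 rose at 8 h (median 0.63) and 1 fell at 12 h (median -0.34). The sodium channel Scn1a (1.30), the glycine receptor Glra1 (1.08), the choline transporter of motor neurons Slc5a7 (1.69) and the heavy neurofilament chain Nefh (1.65) were among those higher at 8 h. Nefh was at -0.42 and -0.64 in the SCI-MP rats at 8 h, against -2.54 and -1.81 in the SCI-EtOH rats, and at -2.09 and -2.87 in the SCI-MP rats at 12 h, against -1.55 and -1.65 in the SCI-EtOH rats. The mean of the neuron markers per rat was -0.52 and -0.32 in SCI-MP at 8 h, against -1.48 and -1.23 in SCI-EtOH, and -1.64 and -1.78 in SCI-MP at 12 h, against -1.32 and -1.51 in SCI-EtOH, while sham rats lay between 0.20 and 0.44 in S-MP and between 0.08 and 0.28 in S-EtOH. All injured rats were therefore below all sham rats, and the SCI-MP rats at 8 h were nearest to them. The neutrophil and neuron lists thus moved in opposite directions in the same rats at 8 h, and the part of cell composition in the calls at that time was not tested. Without SCI-MP 8 h replicate 1 or replicate 2, none of the 7, 9 and 6 rises passed, without SCI-EtOH 8 h replicate 1 they were 3, 2 and 2, and without either SCI-MP 12 h array 6, 4 and 3. The 4 falls of the synaptic list at 12 h were 0 without any 1 of the SCI-MP arrays or SCI-EtOH 12 h replicate 2, and 1 without SCI-EtOH 12 h replicate 1.

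**Figure D3:**
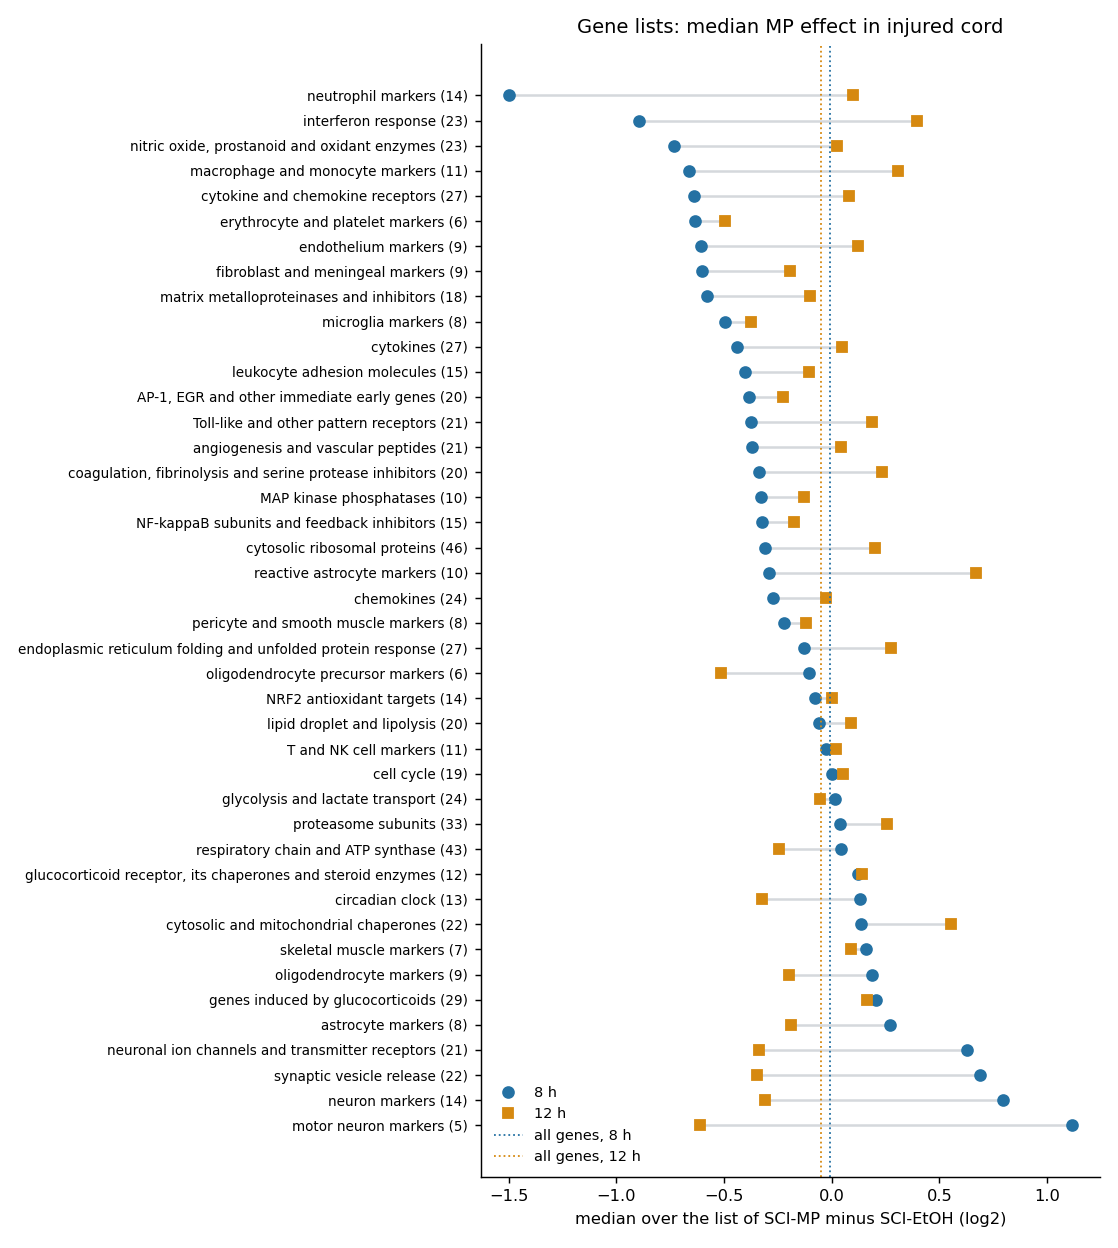
Median over each gene list of the difference SCI-MP minus SCI-EtOH (x axis, log2) at 8 h (circles) and 12 h (squares), with the number of genes measured in brackets and dotted lines at the medians of all genes. The neutrophil list stands at -1.50 at 8 h and 0.10 at 12 h, and the neuron list at 0.80 at 8 h and -0.31 at 12 h.

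Only 4 genes met the rule for 12 h alone, and all rose. Dio2, the deiodinase that activates thyroid hormone, was at 0.62 and 0.56 in the SCI-MP rats at 8 h, against 1.14 and 0.57 in the SCI-EtOH rats, and at 3.16 and 2.81 in the SCI-MP rats at 12 h, against 0.92 and 0.46 in the SCI-EtOH rats. The groups overlapped at 8 h and were apart at 12 h, with a difference of 2.29 at 12 h (adjusted p = 0.0226 in limma) and -0.26 at 8 h. Csrp3, a muscle LIM protein, differed by 1.82 at 12 h and 0.18 at 8 h, the translation factor subunit Eif3e by 1.38 and 0.15, and the arginine methyltransferase Prmt3 by 1.20 and 0.16. None of the 7 skeletal muscle markers passed at either time.

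Some chaperones and reactive astrocyte genes rose at 12 h. Of 22 cytosolic and mitochondrial chaperones, 7 rose and 1 fell at 12 h (median 0.55 beside -0.05 for all genes, of which 1.77% rose), and none passed at 8 h (median 0.13). The rises included Dnaja1 (1.19), the chaperonin subunit Cct8 (0.91) and Hspa4 (0.82). Dnaja1 was at 0.67 and 0.60 in the SCI-MP rats at 12 h, against -0.33 and -0.78 in the SCI-EtOH rats, and it differed by -0.78 between SCI-EtOH and S-EtOH rats at 0 h. Of 10 reactive astrocyte markers, 4 rose at 12 h (median 0.67), namely Serpina3n, Lcn2, the copper oxidase Cp (0.88) and the metalloproteinase inhibitor Timp1 (0.61), and at 8 h 1 fell and none rose (median -0.29). In Serpina3n and Lcn2 both SCI-MP rats lay above both SCI-EtOH rats at 8 h too. The difference between the times passed in none of the 22 chaperones and in 1 of the 10 reactive astrocyte markers, so these rises were not shown to be particular to 12 h. The counts of 7 and 4 were 0 and 0 without any 1 of the SCI-MP arrays or without SCI-EtOH 12 h replicate 2, and 6 and 2 without SCI-EtOH 12 h replicate 1.

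The counts at single times also moved with single arrays. Where the array left out was of the other time, the effects were unchanged and the shared spread alone moved the count. At 8 h, 424 became 2 without SCI-MP 8 h replicate 1, 9 without SCI-MP 8 h replicate 2, 178 without either SCI-MP 12 h array and 232 without SCI-EtOH 8 h replicate 1. At 12 h, 549 became 0 without any 1 of the SCI-MP arrays, 1 without SCI-EtOH 12 h replicate 2, 959 without SCI-EtOH 12 h replicate 1 and 1228 without either SCI-EtOH 8 h array. The 40 genes of both times became 0 without any 1 of the SCI-MP arrays, 1 without SCI-EtOH 12 h replicate 2, 62 without SCI-EtOH 12 h replicate 1 and 71 without SCI-EtOH 8 h replicate 1. The 21 genes of 8 h only became 0 or 1 without any 1 of the SCI-MP arrays, 3 without SCI-EtOH 12 h replicate 2 and 176 without SCI-EtOH 8 h replicate 2. The 4 genes of 12 h only became 0 without any 1 of the SCI-MP arrays or SCI-EtOH 12 h replicate 2, 11 without SCI-EtOH 12 h replicate 1 and 115 without SCI-EtOH 8 h replicate 2.

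The difference between the times was tested for every gene, and 119 passed (0.831%), 64 with a higher (0.447%) and 55 with a lower (0.384%) difference at 12 h. After quantile normalization 9 passed, 8 of them with a higher difference at 12 h. This count was 0 or 2 without any 1 of the SCI-MP arrays, 15 without SCI-EtOH 12 h replicate 2 and 643 without SCI-EtOH 8 h replicate 2. Among the 17 genes that passed at both times in opposite directions, 10 were lower at 8 h and higher at 12 h, namely Gldn, Gfpt2, Ctsc, Slco2a1, Cd55, Arhgdib, Ifitm2, Casp1, C1s and Cemip2. Cd55, which protects cells from complement, was at 1.32 and 0.83 in the SCI-MP rats at 8 h, against 2.05 and 2.01 in the SCI-EtOH rats, and at 3.04 and 3.001 in the SCI-MP rats at 12 h, against 1.61 and 1.31 in the SCI-EtOH rats. Gldn differed by -1.49 at 8 h and 1.52 at 12 h, and Casp1, the protease that matures interleukin-1 beta, by -0.72 and 0.64. The other 7 were higher at 8 h and lower at 12 h, namely Mapk8ip2, Cabp7, Ckmt1, Lynx1, Disp2, Cplx1 and Syt2. Syt2, a calcium sensor of transmitter release, was at -0.58 and -0.86 in the SCI-MP rats at 8 h, against -2.27 and -1.69 in the SCI-EtOH rats, and at -2.87 and -2.72 in the SCI-MP rats at 12 h, against -1.79 and -1.97 in the SCI-EtOH rats. Cplx1, a complexin of the same machinery, differed by 0.98 at 8 h and -1.26 at 12 h. The 17 became 0 without any 1 of the SCI-MP arrays or SCI-EtOH 12 h replicate 2, 25 without SCI-EtOH 12 h replicate 1 and 54 without SCI-EtOH 8 h replicate 2.

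**Figure D4:**
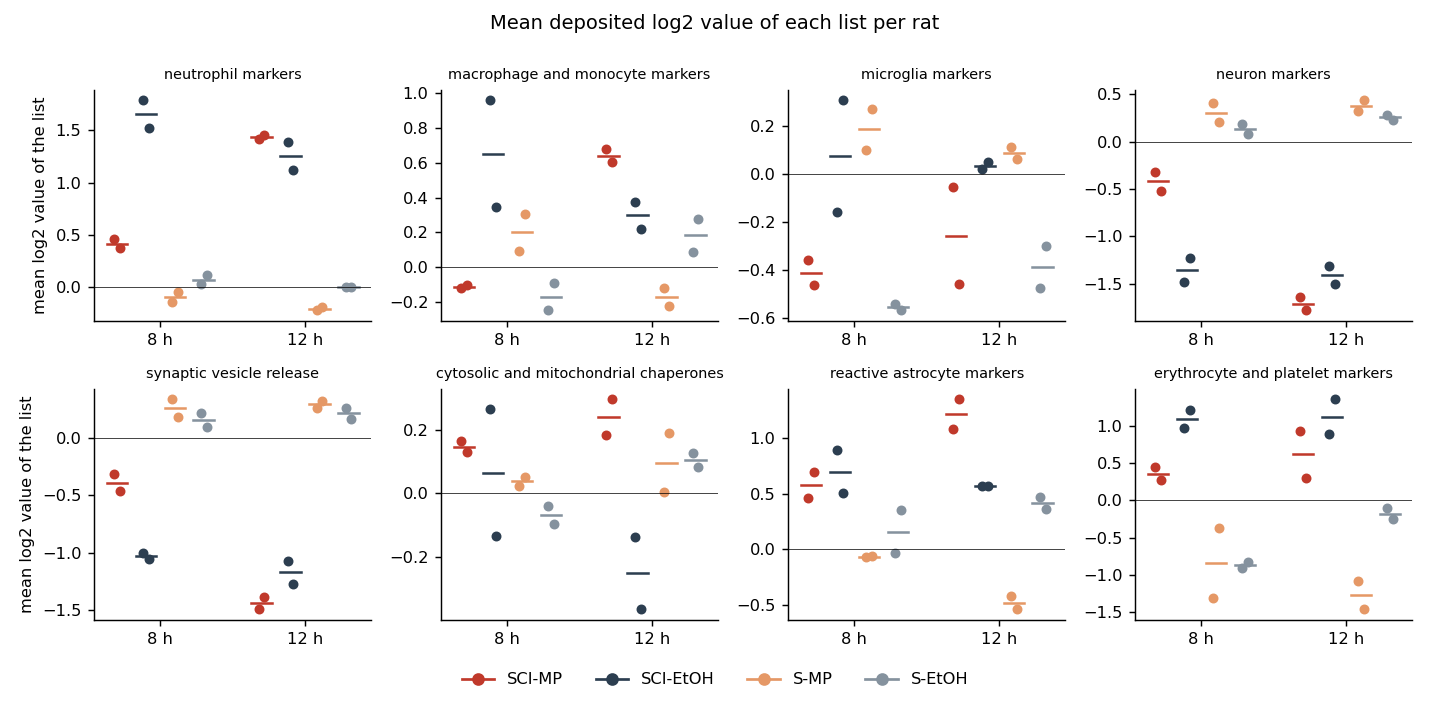
Mean deposited log2 value of 8 gene lists in each rat (y axis) at 8 and 12 h, with SCI-MP, SCI-EtOH, S-MP and S-EtOH from left to right and bars at the mean of the 2 rats. For neutrophil markers the SCI-MP rats stand at 0.37 and 0.46 at 8 h, well below the SCI-EtOH rats, and at 1.42 and 1.46 at 12 h.

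The same drug, dose and times were also examined in sham cord, and the MP effects in injured and sham cord share no array. The MP effect over both times differed between injured and sham cord in 1045 genes (7.3%), with 290 higher (2.02%) and 755 lower (5.27%) in injured cord. Il1b differed by -2.20 in injured and by -0.46 in sham cord (adjusted p of the difference 0.000405 in limma), Nos2 by -2.17 and -0.51 (0.00205), and G0s2 by -1.79 and -0.20 (0.00481). Serpina3n differed by 1.62 in injured and by -0.30 in sham cord (0.00593), Hectd2 by 1.35 and -0.27 (0.0034), and Zfp189 by 1.38 and -0.09 (0.01). For Cxcl2, Plaur and Fkbp5 the difference between injured and sham cord did not pass. Some lists fell in sham cord too. Over both times, S-MP was lower than S-EtOH in 5 of 20 immediate early genes (list median -0.38) and 9 of 24 chemokines (-0.35). It was lower in 4 of 15 NF-kappaB genes (-0.12), and none of these 3 lists had a rise. Among all 14324 genes, 174 were lower in S-MP.

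The largest differences arose where sham cord moved too. Cxcl10, an interferon-induced chemokine, was at 2.82 and 2.99 in the SCI-MP rats and 2.91 and 0.42 in the SCI-EtOH rats at 8 h, beside -0.67 and -0.38 in the S-MP rats and 2.43 and 1.92 in the S-EtOH rats, and the effect was 1.42 in injured and -2.67 in sham cord. Cxcl11 (0.91 and -2.04) and Lcn2 (1.37 and -0.99) followed the same order, and Slco1c1, a thyroid hormone and organic anion transporter of brain vessels, ran the other way, at -0.74 in injured cord, where it did not pass, and 1.20 in sham cord. Of 23 other interferon response genes, 1 fell and none rose over both times in injured cord, beside 1.31% and 0.859% of all genes. Their median was -0.34 over both times, -0.89 at 8 h and 0.40 at 12 h. With 1 array left out, the injured effect ranged from -1.05 to -0.35 for Slco1c1 and from 0.957 to 1.95 for Cxcl10, which did not pass with all arrays. Of 8 microglia markers, 7 had a lower MP effect in injured than in sham cord (list median of the difference -1.01), and their mean per rat was -0.46 to -0.06 in SCI-MP and -0.16 to 0.30 in SCI-EtOH, beside 0.06 to 0.27 in S-MP and -0.57 to -0.30 in S-EtOH. The count of 1045 lay between 429, without S-EtOH 12 h replicate 1, and 1893, without SCI-EtOH 8 h replicate 1. It moved by over 1.5 times also without SCI-MP 8 h replicate 2 (439), SCI-MP 12 h replicate 1 (662) or 2 (575), S-EtOH 8 h replicate 2 (559), S-EtOH 12 h replicate 2 (485), S-MP 8 h replicate 1 (617) or 2 (668), and S-MP 12 h replicate 1 (539).

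**Figure D5:**
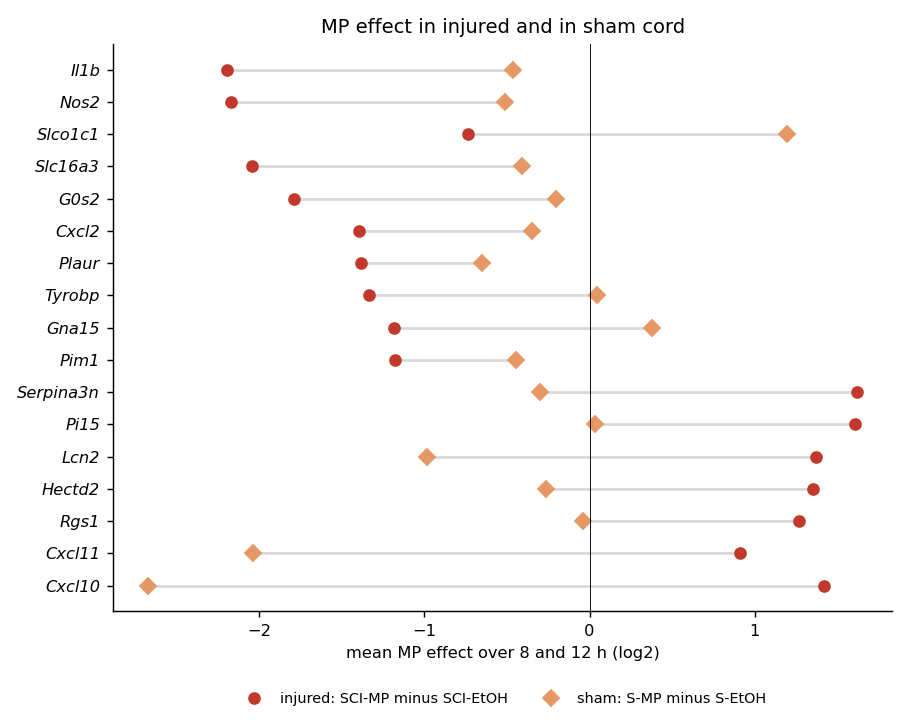
Mean MP effect over 8 and 12 h (x axis, log2) in injured cord (circles) and in sham cord (diamonds) for 17 named genes. Il1b stands at -2.20 in injured and -0.46 in sham cord, and Cxcl10 at 1.42 in injured and -2.67 in sham cord.

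The SCI-EtOH arrays enter both the MP effect and the effect of injury, so the values of each are set side by side with no relation drawn between them. Over both times SCI-EtOH exceeded S-EtOH by 3.05 in Il1b, 3.54 in Nos2, 5.04 in Cxcl2, 3.03 in Slc16a3 and 2.70 in Plaur, where MP differed by -2.20, -2.17, -1.40, -2.05 and -1.38. SCI-EtOH was below S-EtOH by -2.88 in Nefm and by -1.08 in Lcn2. SCI-EtOH also differed from S-EtOH at 0 h, in 4 arrays that enter none of the MP effects. Of the 123 genes that rose with MP, 28 (22.8%) had an unadjusted p under 0.05 at 0 h, all lower in SCI-EtOH, and of the 187 that fell 57 (30.5%) did, 56 of them higher in SCI-EtOH, beside 11.8% of all genes, of which 1312 were higher and 371 lower. After adjustment only 6 of all 14324 genes passed at 0 h, with none of the 123 and 1 of the 187 among them. Zmat2 stood at -0.99, Cab39 at -0.72, Cycs at -0.50, Ier2 at 0.80 and the erythrocyte anion exchanger Slc4a1 at 1.39 in this 0 h difference, and its part in the MP effect was not tested. With this difference added in the fit of all 60 arrays, 47 genes passed over both times, beside 2539 in that fit without it. The sum also carries the error of the 0 h difference. Il1b stood at 0.56, Nos2 at -0.17 and Serpina3n at 0.20 in the 0 h difference, none past the threshold. Of 6 erythrocyte and platelet markers, Slc4a1 alone passed over both times (-1.07), and the list median was -0.60. Slc4a1 turned to 0.32 with the 0 h difference added and kept its call only without SCI-EtOH 8 h replicate 1, among the 8 arrays left out in turn. The mean of this list per rat was 0.28 to 0.94 in SCI-MP and 0.90 to 1.35 in SCI-EtOH.

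At the other times, 2 to 6 h and 24 to 48 h, 20 further injured arrays gave the MP effect without sharing an array with 8 and 12 h. Among them the 2 SCI-EtOH rats of 6 h correlated at only 0.161 over all probe sets, the lowest of the injured pairs. Their standard deviations were 0.471 in replicate 1 and 0.228 in replicate 2. Both enter the effects at 2 to 6 h and the test against the other times. Only Mefv, which encodes the inflammasome regulator pyrin, differed past the threshold between 8 and 12 h and the other times (0.00698% of genes), and 1431 genes had an unadjusted p under 0.05 in limma. Mefv was at 0.00 and 0.03 in the SCI-MP rats at 8 h, against 1.42 and 1.33 in the SCI-EtOH rats, and at 0.63 and 0.37 in the SCI-MP rats at 12 h, against 1.51 and 0.98 in the SCI-EtOH rats, a difference of -1.05 over both times beside -0.10 at 2 to 6 h and -0.23 at 24 to 48 h. Without SCI-EtOH 6 h replicate 1 the count was 76, without SCI-EtOH 8 h replicate 1 it was 9, without SCI-MP 24 h replicate 2 it was 4, without SCI-EtOH 8 h replicate 2, SCI-EtOH 6 h replicate 2 or SCI-EtOH 48 h replicate 1 it was 3, and without SCI-EtOH 12 h replicate 2, SCI-MP 12 h replicate 1 or SCI-MP 48 h replicate 1 it was 2. Il1b differed by -1.66 at 2 to 6 h and by -1.16 at 24 to 48 h, Nos2 by -0.63 and -1.35, Serpina3n by -0.03 and 0.29, Lcn2 by -0.00 and 0.00 and Rgs1 by 1.31 and 0.58, and for none of these 5 did the test against 8 and 12 h pass.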

How the data were processed

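The authors hybridized RNA of 60 spinal cord segments to Affymetrix whole-transcript rat gene arrays and deposited log2 values per probe set. RMA is named in the submitters' processing notes, and GeneSpring in the study's methods. The deposited log2 values are centred per probe set on a value that the sources used here do not define, so differences between arrays can be read and levels cannot. Of 27342 probe sets, 15097 had 1 gene symbol, 323 had several and 11922 had none. Only the 15097 were used, and 15067 matched a RefSeq symbol. Probe sets were kept where the coefficient of variation of linear values was under 50% in at least 16 of 30 duplicate pairs, which kept all 15097, and probe sets of a gene were averaged, as happened in 499 of 14324 genes.

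Groups were taken from the sample labels. Differences SCI-MP minus SCI-EtOH were tested with limma 3.58.1 in R 4.3.3, with time as covariate over 8 and 12 h and with a mean per group and time for single times, for the difference between times, for injured minus sham cord and for 8 and 12 h minus the other times. P-values are two-sided, Benjamini-Hochberg adjusted over all genes, with a threshold of 0.05. The labels call the 2 arrays of a group duplicates and the study's methods describe 1 rat per array. The precision is that of 2 rats per group and time, with a median standard error of 0.111 on the log2 scale over both times and 0.145 at a single time. The fits were tested on simulated data.

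The genes named were the 12 largest rises and 12 largest falls whose rats did not overlap at either time, up to 4 called members of each gene list, the 4 largest changes of each direction at 1 time only, 7 glucocorticoid response genes, and the 3 largest differences of each direction against sham cord and against the other times. Other genes of the lists and classes, and those of opposite direction, were picked after their values were seen. The members and gene lists were chosen with earlier results of these data known. Alternatives were all arrays or all injured arrays in the fit, other scalings, array weights, the replicate block, other probe set rules and filters, addition of the 0 h difference, and omission of each array. Promoter sequences came from RefSeq on GRCr8, and 22 of 31 named genes searched had an entry.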

Additional observations from a re-analysis of the deposited data

Results flagged for a closer look

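The MP effect in injured cord differed between 8 and 12 h in several named genes, by the test of that difference in limma. Genes of leukocytes, cytokines and inducible enzymes had a higher log2 difference SCI-MP minus SCI-EtOH at 12 h than at 8 h, namely Il1b (1.99), S100a9 (3.03), Cxcl6 (2.40), Lif (1.93), Casp1 (1.37), Csf3r (2.31), S100a8 (2.61), Ptgs2 (1.63), Fpr1 (2.18), Cd163 (1.97), Mrc1 (1.46) and Il6 (1.63). The values in brackets are the effect at 12 h minus that at 8 h. Neuronal genes had a lower effect at 12 h, namely Nefm (-2.64), Nefl (-1.97), Elavl2 (-1.49), Snap25 (-1.05), Ina (-1.26), Syt2 (-2.17), Cplx1 (-2.24), Nefh (-2.53), Slc5a7 (-2.59), Scn1a (-1.63) and Glra1 (-1.73). Further genes with a higher effect at 12 h were C3h15orf48 (2.26), Dio2 (2.55), Csrp3 (1.63), Eif3e (1.23), Prmt3 (1.04), Cd55 (2.52), Gldn (3.01), Thbd (1.73) and Timp1 (1.21), and Fgf9 (-1.55) had a lower one.

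The MP effect also differed between injured and sham cord over both times, by the test of that difference in limma. It was lower in injured cord, by the log2 value in brackets, in the myeloid genes Tyrobp (-1.38), Gna15 (-1.57), Il10ra (-1.04), Cx3cr1 (-1.01), S100a9 (-1.20), Mmp8 (-1.50), S100a8 (-0.61), Cybb (-1.50), Il1r2 (-1.22), Selplg (-1.23), Itgb2 (-0.87) and Mefv (-0.95). It was lower as well in Il1b (-1.74), Nos2 (-1.66), Slc16a3 (-1.64), G0s2 (-1.59), Pim1 (-0.73), Mif (-0.68), Nfkbie (-0.71), Ier2 (-0.78), Dusp2 (-0.79), Egln3 (-1.17), Nr1d1 (-0.80), Cxcl6 (-0.96) and Slco1c1 (-1.94). It was higher in injured cord in Serpina3n (1.92), Pi15 (1.58), Zfp189 (1.47), Lcn2 (2.36), Hectd2 (1.62), Rgs1 (1.31), Cdc37l1 (1.18), Mgst2 (0.84), Zmat2 (0.99), Cab39 (0.999), Cxcl11 (2.95), Dnaja1 (1.01), Uqcrb (0.56), Cycs (0.70), Snap25 (0.51), Dio2 (1.24), Csrp3 (1.22), Prmt3 (0.62), Cp (0.84) and Cxcl10 (4.09).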

How the results depend on the processing

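The counts of called genes moved with the processing, and the cause was not tested. For the effect over both times, 310 genes became 2539 with all 60 arrays in the fit, 1124 with the 30 injured arrays, 883 after quantile normalization, 190 with array medians set to 0, 505 with array weights, 112 with the noise filter on log2 values, 962 with a mean per group and time and 47 with the 0 h difference added. The noise filter on log2 values left 2631 genes to test in place of 14324. All counts with the log2 filter are therefore out of a smaller total and are not comparable as counts. At 8 h, 424 became 952 with all 60 arrays, 755 after quantile normalization, 78 with the 0 h difference added, 355 (219 higher) in the plain analysis of the methods and 137 in a fit of that time alone. At 12 h, 549 became 2318 with all 60 arrays, 16 after quantile normalization (10 higher), 254 with the 0 h difference added, 959 (308 higher) in the plain analysis of the methods and 351 in a fit of that time alone. The 0 h difference was added in the fit of all 60 arrays, so 47, 78 and 254 stand beside 2539, 952 and 2318. The 119 genes that differed between the times became 650 with all 60 arrays, 24 with the 30 injured arrays, 9 after quantile normalization (8 higher) and 413 with the log2 filter. The 1045 genes that differed from sham cord became 1745 after quantile normalization and 404 with the log2 filter. The 1 gene that differed from the other times became 329 with all 60 arrays, 0 after quantile normalization, 3 with array weights and 2 with the log2 filter.

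The 40 genes of both times became 198 with all 60 arrays and 6 after quantile normalization. The 17 of opposite direction became 29 with all 60 arrays, 2 with the 30 injured arrays, 0 after quantile normalization, 11 with array medians set to 0 and 48 with the log2 filter. The 21 of 8 h only became 164, 9 and 3 with all 60 arrays, with the 30 injured arrays and after quantile normalization, 39 with array weights and 149 with the log2 filter. The 4 of 12 h only became 239 with all 60 arrays, 0 after quantile normalization, 2 with array medians set to 0, 10 with array weights and 76 with the log2 filter.

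With 1 array left out at a time, the counts ranged from 0 to 996 over both times, 2 to 581 at 8 h, 0 to 1228 at 12 h, 0 to 643 between the times, 429 to 1893 against sham cord and 1 to 76 against the other times. They ranged from 0 to 71 for both times, 0 to 54 for opposite directions, 0 to 176 for 8 h only and 0 to 115 for 12 h only. A group left with 1 array was assumed to vary like the others. Of 108 calls of named genes, between 4 (either SCI-MP 8 h array left out) and 90 (SCI-EtOH 8 h replicate 1 left out) were kept.

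With the replicate number as a block, 209 genes passed over both times, 467 at 8 h, 632 at 12 h, 97 between the times and 1209 against sham cord, and 94 of the 108 calls were kept. Deviations of same-numbered rats correlated between -0.098 and 0.299, so the numbers were not taken to pair the rats.

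With the 0 h difference added in the fit of all 60 arrays, 27 of the 108 calls were kept, beside 97 in that fit without it. The 3 reversed calls were Zmat2 (-0.024), Egr1 (0.083) and Slc4a1 (0.32). Among uncalled genes, Dusp1 turned to 0.77 with the 0 h difference added and to 0.049 after quantile normalization, and Nr3c1 to 0.031 with the 0 h difference added. Nr3c1, at -0.02 with all arrays, ranged from -0.150 without SCI-EtOH 12 h replicate 2 to 0.056 without SCI-MP 8 h replicate 2, and was above 0 also without SCI-EtOH 8 h replicate 2 (0.039) or SCI-EtOH 12 h replicate 1 (0.051). With 2 rats per group and time, small differences could not be resolved, and a gene that missed the threshold was not shown to be unaffected.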

Other observations

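Some pattern receptors, adhesion molecules and matrix proteases were lower at 8 h, when 2.12% of all genes fell. Of 21 genes in the list of Toll-like and other pattern receptors, 5 fell and none rose at 8 h, with a list median of -0.38. They included Clec4d (-2.95) and Clec7a (-1.99), lectin receptors of myeloid cells, and Tlr2 (-1.38), a receptor for bacterial lipoproteins. At 12 h 3 genes of the list rose and none fell, namely Fpr1 (1.29), Tlr7 (0.76), a receptor for single-stranded RNA, and Casp1 (0.64), a protease and not a receptor. None of these 3 passed without any 1 of the SCI-MP arrays or without SCI-EtOH 12 h replicate 2. The 5 falls were 0 without either SCI-MP 8 h array and 2 without SCI-EtOH 8 h replicate 1.

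Of 15 leukocyte adhesion molecules, 4 fell at 8 h, the integrin chains Itgb2 (-1.54) and Itga4 (-1.08), the selectin ligand Selplg (-0.99) and Icam1 (-0.75), an endothelial ligand of leukocyte integrins, and none passed at 12 h. The 4 were 0 without either SCI-MP 8 h array and 1 without SCI-EtOH 8 h replicate 1. Of 18 matrix metalloproteinases and inhibitors, 3 fell at 8 h, Mmp8 (-2.76), Mmp19 (-1.13) and Adamts5 (-1.02), a protease that cleaves aggrecan. None of the 3 passed without either SCI-MP 8 h array or without SCI-EtOH 8 h replicate 1, and 1 did without either SCI-MP 12 h array. The genes named here were picked after their values were seen.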
